A study of Mus musculus with 6 samples.

Results

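The heavy chains of MHC class I and their shared light chain, beta-2 microglobulin (*B2m*), were described in hematopoietic stem cells (HSCs) of WT and *Irf1-/-* mice. The genes were taken by symbol from the 26264 genes of a table of normalized counts, and all 10 symbols were found in it. They comprise 2 classical heavy chains, *H2-K1* and *H2-D1*, and 7 nonclassical heavy chains, *H2-Q4*, *H2-Q6*, *H2-Q7*, *H2-T22*, *H2-T23*, *H2-T24*, and *H2-M3*, beside *B2m*. Bulk RNA-seq was performed on bone marrow HSCs from untreated female mice aged 8 weeks, 3 WT (C57Bl/6) and 3 whole-body *Irf1-/-* (B6.129S2-Irf1 tm1Mak/J), with 1 library per mouse. Effects of the allele and of other differences between these mouse strains cannot be told apart. In both genotypes the libraries carry the replicate numbers 2, 3, and 4, and values are given below in that order. A normalized count is the number of reads counted on a gene divided by 1 size factor per library. Between 43138521 and 59658080 reads per library were counted on genes.

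Class I molecules display short peptides from inside the cell at its surface. A heavy chain binds the peptide, and its fold at the surface depends on noncovalent pairing with B2m, which all classical and most nonclassical chains share. Classical chains are highly polymorphic and present peptides to CD8+ T cells, whereas nonclassical chains vary less between individuals and are ligands of natural killer (NK) cells and of restricted T cell subsets. Class I genes are induced by interferons, and IRF1 is one of the transcription factors known to act on their promoters.

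*Irf1*, the targeted gene, was counted in every library. Normalized counts of *Irf1* were 10122, 11120, and 12057 in WT and 9267, 9524, and 9287 in *Irf1-/-* libraries. The *Irf1-/-* libraries were all below the WT libraries, but the gap was small, with a log2 fold change of −0.24 (SE 0.088) and an adjusted *P* of 0.170 (limma). A count over a whole gene does not show from which form of the allele the reads came, so this value does not check the genotype labels. Across all tested genes the first principal component (32.4% of the variance) set *Irf1-/-* replicate 3 and WT replicates 2 and 3 apart from the other libraries and did not follow genotype. The second component (24.8%) placed all *Irf1-/-* libraries on one side and all WT libraries on the other.

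Class I transcripts were lower in *Irf1-/-* HSCs for most of these genes. Of the 10 genes, 9 reached a mean of 10 normalized counts and entered the test across 17404 genes, and all 9 fold changes were negative. In limma, 6 had an adjusted *P* under 0.05 and were lower (*H2-K1*, *H2-D1*, *H2-Q6*, *H2-T23*, *H2-M3*, and *B2m*), whereas 1.49% of all tested genes were. Of these, 2 (*H2-Q6* and *B2m*) also passed an absolute log2 fold change of 0.58, against 0.954% of all tested genes. All *Irf1-/-* libraries lay below all WT libraries for 8 of the 9, compared with 9.27% of all tested genes. The median log2 fold change was −0.47 for the 9 genes and −0.0028 for all tested genes. Fewer class I–rich cells and less class I RNA per cell cannot be told apart in bulk samples. In limma without an intensity trend, none of the 9 had an adjusted *P* under 0.05, while their log2 fold changes were unchanged. edgeR gave 6 and DESeq2 gave 7 with an adjusted *P* under 0.05.

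**Figure D1:**
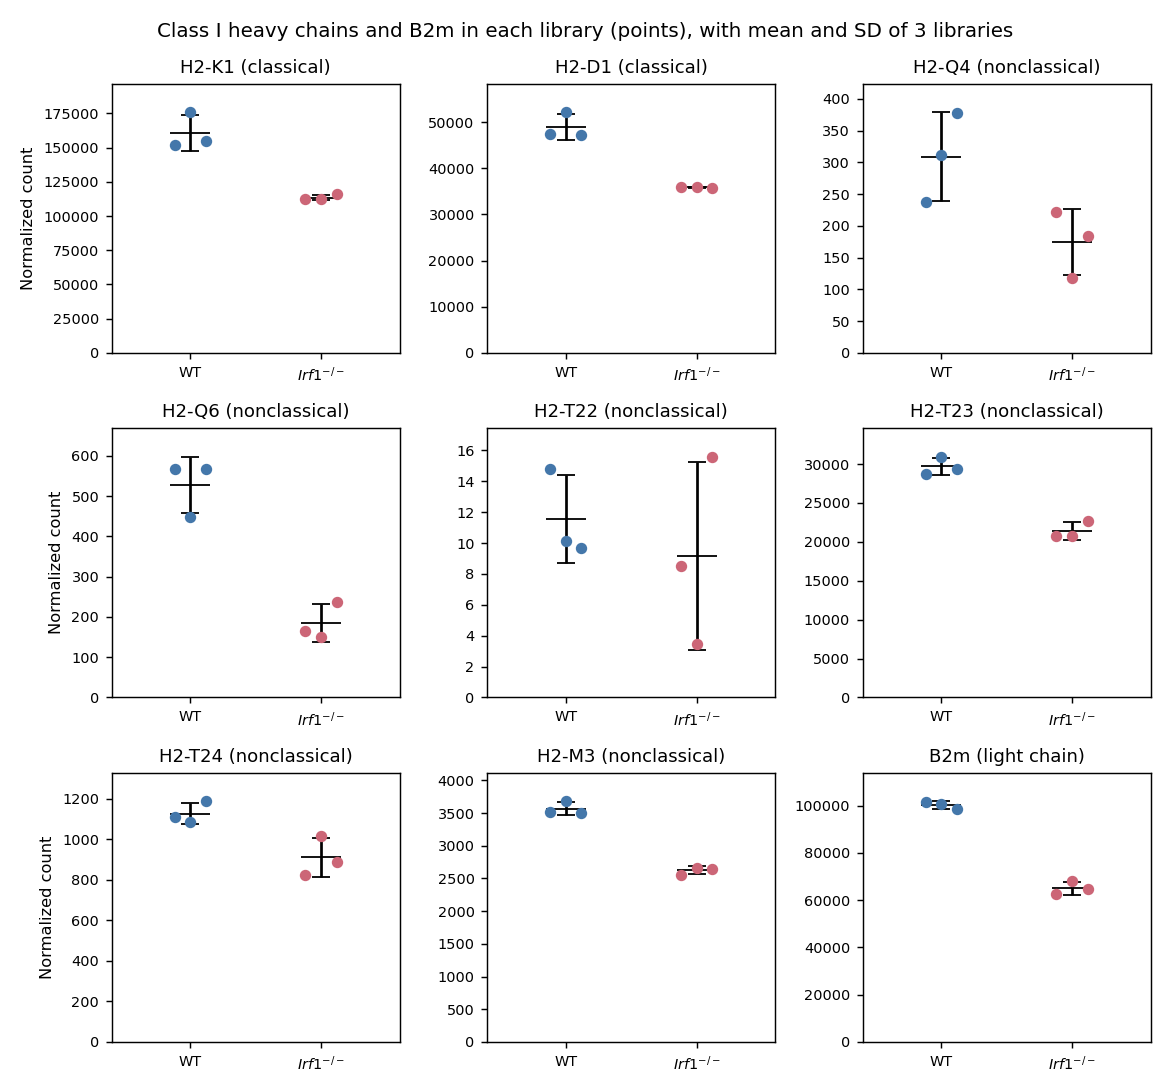
Normalized count (vertical axis, linear from 0) of the 9 tested class I genes in each WT and *Irf1-/-* library (points), with the mean and SD of 3 libraries per genotype (black). The *Irf1-/-* points lie below the WT points in 8 panels and overlap with them for *H2-T22*.

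Both classical chains were lower in *Irf1-/-* HSCs. *H2-K1*, which encodes the K heavy chain, had 151704, 175630, and 154794 normalized counts in WT libraries and 112485, 112196, and 115773 in *Irf1-/-* libraries. The *Irf1-/-* libraries were close to each other, WT replicate 3 stood highest, and the genotypes did not overlap. On average, *Irf1-/-* HSCs retained 70.6% of the WT level of *H2-K1* (log2 fold change −0.50, SE 0.103, adjusted *P* = 0.0178, limma). *H2-D1*, which encodes the D heavy chain, had 47408, 52105, and 47136 normalized counts in WT and 35903, 35876, and 35833 in *Irf1-/-* libraries. Here too WT replicate 3 was highest, and the 3 *Irf1-/-* libraries were nearly equal (SD 35.2). For *H2-D1*, 73.4% of the WT level was left (log2 fold change −0.44, SE 0.087, adjusted *P* = 0.0130, limma). Neither chain passed the fold change threshold. The adjusted *P* of both went above 0.05 without *Irf1-/-* replicate 2, *Irf1-/-* replicate 4, or WT replicate 2 (up to 0.136 for *H2-K1* and 0.105 for *H2-D1*, limma), while the log2 fold change stayed between −0.54 and −0.43 for *H2-K1* and between −0.47 and −0.40 for *H2-D1*.

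Among nonclassical chains, *H2-T23* had the highest level per kilobase. It encodes the heavy chain of Qa-1, which presents leader peptides of other class I chains to inhibitory receptors of NK cells. Normalized counts of *H2-T23* were 28777, 30910, and 29391 in WT and 20784, 20737, and 22704 in *Irf1-/-* libraries. Every *Irf1-/-* library was well below the lowest WT library. The log2 fold change was −0.47 (SE 0.085, adjusted *P* = 0.0080, limma), and the adjusted *P* was at most 0.0432 when any 1 library was left out. *H2-M3* encodes a chain specialized for peptides that begin with formylmethionine, as bacterial and mitochondrial peptides do. It had 3519, 3677, and 3498 normalized counts in WT and 2553, 2667, and 2649 in *Irf1-/-* libraries. The spread within each genotype was small compared with the gap between them. On the log2 scale *H2-M3* was at −0.44 relative to WT (SE 0.089, adjusted *P* = 0.0147, limma). Its adjusted *P* went above 0.05 without *Irf1-/-* replicate 2, *Irf1-/-* replicate 4, WT replicate 2, or WT replicate 3 (up to 0.0661, limma).

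*H2-T24*, another chain of the T cluster, did not pass the test. It had 1111, 1084, and 1187 normalized counts in WT and 826, 1018, and 887 in *Irf1-/-* libraries. *Irf1-/-* replicate 3 came close to WT replicate 3, and the genotypes were still separate. The log2 fold change was −0.31 (SE 0.126, adjusted *P* = 0.226, limma). *H2-T22*, a ligand of some gamma delta T cell receptors, had few reads. Reads counted on *H2-T22* numbered 18, 9, and 9 in WT and 8, 4, and 15 in *Irf1-/-* libraries. The genotypes overlapped, and after normalization the lowest and the highest value (15.6) both came from *Irf1-/-* libraries. A difference in *H2-T22* was not detectable from these reads (log2 fold change −0.47, SE 0.79, adjusted *P* = 0.846, limma).

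Of the 9 tested genes, the one with the widest difference was in the Q cluster. *H2-Q6*, 1 of the genes of the Qa-2 antigen, which is held at the cell surface by a lipid anchor, fell from 568, 447, and 568 normalized counts in WT to 164, 150, and 238 in *Irf1-/-* libraries. WT replicate 3 was the lowest WT library and *Irf1-/-* replicate 4 the highest *Irf1-/-* library, with a wide gap between them. The average of *Irf1-/-* libraries came to 34.9% of that of WT. The log2 fold change of *H2-Q6* was −1.53 (SE 0.220, adjusted *P* = 0.0016, limma), and it was called in all 6 fits that left out 1 library (−1.73 to −1.40). *H2-Q4*, a nonclassical chain of the same cluster, had 238, 311, and 378 normalized counts in WT and 222, 118, and 184 in *Irf1-/-* libraries. WT replicate 2 and *Irf1-/-* replicate 2 lay close together, and both genotypes were spread widely. With a log2 fold change of −0.84 (SE 0.271), *H2-Q4* did not pass in limma (adjusted *P* = 0.120), but it passed in DESeq2 (adjusted *P* = 0.0309) and in limma when a term for the library split along the first principal component was added (adjusted *P* = 0.0274). The adjusted *P* of *H2-Q4* over these and the other settings ranged from 0.0274 to 0.357. *H2-Q7*, which also encodes Qa-2, was listed at 0 reads in all 6 libraries and was not tested.

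*B2m*, the light chain, was called lower. It had 101527, 100461, and 98416 normalized counts in WT and 62396, 67919, and 64748 in *Irf1-/-* libraries. WT libraries were nearly equal, and the highest *Irf1-/-* library was far below the lowest WT library. *Irf1-/-* HSCs had 64.9% of the WT level, and *B2m* fell by 0.62 on the log2 scale (SE 0.092, adjusted *P* = 0.0020, limma). *B2m* was called in each of the 6 fits that left out 1 library, with log2 fold changes between −0.66 and −0.59 and an adjusted *P* of at most 0.0321 (limma).

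Levels of the genes were set side by side as mean normalized counts per kilobase of exon. In WT HSCs, *B2m* was highest at 116435 per kilobase, followed by *H2-K1* at 61622 and *H2-D1* at 18888. *H2-T23* came next at 10278 per kilobase, ahead of *H2-M3* at 2479 and *H2-T24* at 516. *H2-Q6* (244 per kilobase) and *H2-Q4* (116 per kilobase) stood lower, above *H2-T22* at 3.38. None of these neighbours overlapped among the WT libraries. In *Irf1-/-* HSCs, *B2m* stood at 75606 per kilobase, *H2-K1* at 43514, *H2-D1* at 13860, *H2-T23* at 7410, *H2-M3* at 1824, and *H2-T24* at 416. The order was the same, except that *H2-Q6* (69.4 to 110 per kilobase) and *H2-Q4* (44.3 to 83.0 per kilobase) overlapped.

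Classical and nonclassical chains made up similar shares of heavy chain transcripts in both genotypes. On the per-kilobase scale, the classical chains contributed 85.2%, 86.1%, and 85.1% of heavy chain transcripts in WT libraries. In *Irf1-/-* libraries their share was 85.7%, 85.5%, and 85.0%. These shares overlapped between the genotypes. Summed nonclassical normalized counts were 34227, 36440, and 35031 in WT and 24558, 24694, and 26677 in *Irf1-/-* libraries, a log2 difference of −0.48, while summed classical counts differed by −0.49. Without *H2-T23*, the nonclassical sum differed by −0.51. The ratio of *H2-K1* to *H2-D1* per kilobase was 3.18, 3.34, and 3.26 in WT and 3.11, 3.10, and 3.21 in *Irf1-/-* libraries, and these values overlapped. All heavy chains together reached 0.760, 0.869, and 0.796 of the *B2m* level per kilobase in WT and 0.917, 0.842, and 0.910 in *Irf1-/-* libraries, with *Irf1-/-* replicate 3 inside the WT range.

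Whether each heavy chain moved with the light chain was examined as the log2 ratio of the heavy chain to *B2m* in each library. Of 8 ratios, 3 were above the WT range in all *Irf1-/-* libraries, 1 was below it, and 4 overlapped. Of all 17403 tested genes other than *B2m*, set over it in the same way, 67.6% were above the WT range in all *Irf1-/-* libraries and 0.603% below it, so a rise relative to *B2m* is what most genes had. Relative to *B2m*, *H2-D1* was higher by 0.18 (SE 0.058), *H2-M3* by 0.18 (SE 0.030), and *H2-T24* by 0.31 (SE 0.073) on the log2 scale in *Irf1-/-* HSCs. *H2-Q6* was the chain that was lower relative to *B2m*, at −0.91 (SE 0.243). For these 4 chains *P* was 0.1 in an exact two-sided permutation test, which is the smallest value that 3 against 3 libraries can reach, so no ratio could pass 0.05. *H2-K1* (0.12, SE 0.078) and *H2-T23* (0.15, SE 0.068) had positive differences but overlapped between genotypes (exact permutation *P* = 0.2 for each). *H2-Q4* (exact permutation *P* = 0.6) and *H2-T22* (exact permutation *P* = 1.0) overlapped widely.

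Class I genes are a family of similar copies, so reads can be shared between them. Of the 100-base exon windows of *H2-Q7*, 42.6% occurred more than once on the searched chromosomes of an older assembly, compared with 20.3% for *H2-Q6* and 10.7% for *H2-Q4*. The share was 9.87% for *H2-T22*, 7.45% for *H2-T23*, 4.78% for *H2-D1*, and 3.22% for *H2-K1*. No window of *B2m*, *H2-M3*, or *H2-T24* was repeated. Values of genes with repeated windows, T genes such as *H2-T22* and *H2-T23* among them, are therefore uncertain as to which copy the reads came from, and the part of repeated sequence in the 0 of *H2-Q7* was not tested. The Q genes were also summed, which does not depend on how counted reads are split among them. Reads that were not counted, or were counted on other class I genes, can still alter the sum. Repeated windows were not determined for *H2-Q5*, which made up most of the sum. Together the 9 Q genes had 3921, 3953, and 3948 normalized counts in WT and 2689, 1553, and 2389 in *Irf1-/-* libraries. WT sums were nearly equal and *Irf1-/-* replicate 3 was lowest. The log2 difference of this sum was −0.87, smaller than for *H2-Q6* alone. The sum of *H2-K1* and *H2-D1* differed by −0.49 and that of the 7 T genes by −0.47.

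Other class I loci of the H2 complex were examined as a list of 25 symbols, of which 18 were in the table and 8 were tested. All 8 had negative fold changes, with a median of −0.58, whereas 8776 of all 17404 tested genes had negative ones. Of the 8, 3 were called lower, namely *H2-T3*, *H2-T10*, and *H2-Q5*, compared with 0.954% of all tested genes. *H2-T3*, which encodes the thymus leukemia antigen, had 109, 90.2, and 120 normalized counts in WT and 5.33, 13.8, and 24.9 in *Irf1-/-* libraries. The *Irf1-/-* libraries were all far below WT, at few reads. Its log2 fold change was −2.99 (SE 0.542, adjusted *P* = 0.0084, limma), and it was called in all 6 fits that left out 1 library. *H2-T10*, a close relative of *H2-T22*, had 733, 856, and 880 normalized counts in WT and 555, 553, and 493 in *Irf1-/-* libraries. These genotypes did not overlap, but the call of *H2-T10* (log2 fold change −0.62, SE 0.144, adjusted *P* = 0.0319, limma) was lost when *Irf1-/-* replicate 2, 3, or 4 or WT replicate 3 or 4 was left out (adjusted *P* up to 0.143). *H2-Q5* had 3000, 3145, and 2893 normalized counts in WT and 2209, 1226, and 1932 in *Irf1-/-* libraries, and thus made up most of the summed counts of the Q genes. *Irf1-/-* replicate 3 was its lowest library. The log2 fold change of *H2-Q5* was −0.79 (SE 0.167, adjusted *P* = 0.0195, limma), and its call was lost without *Irf1-/-* replicate 3 (−0.54) and without WT replicate 3 (adjusted *P* = 0.0705). *H2-Q8*, *H2-Q9*, *H2-T9*, *H2-M1*, and *H2-M10.1* were listed at 0 in every library, as *H2-Q7* was. Of these, *H2-M1* and *H2-M10.1* had no repeated window.

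Of 13 genes that supply and load class I peptides, 8 were called lower, compared with 0.954% of all tested genes. The median log2 fold change was −0.63, compared with −0.0028 for all tested genes. *Tapbpl*, an editor of peptides on class I molecules, had the widest difference, from 4136, 4850, and 4134 normalized counts in WT to 1831, 1704, and 1675 in *Irf1-/-* libraries (log2 fold change −1.33). The 3 inducible proteasome subunits *Psmb8* (−0.86), *Psmb9* (−0.98), and *Psmb10* (−0.96), the proteasome activator subunits *Psme1* (−0.58) and *Psme2* (−0.85), the peptide trimming enzyme *Erap1* (−0.77), and the peptide transporter subunit *Tap1* (−0.63) were the others. The call of *Tap1* was lost on the fold change without *Irf1-/-* replicate 3 or WT replicate 3, and that of *Psme1* without *Irf1-/-* replicate 2, WT replicate 3, or WT replicate 4 (smallest falls −0.55 and −0.53). Quantile normalization also took both below the threshold (−0.57 for *Tap1* and −0.54 for *Psme1*), as the term for the library split did for *Psme1* (−0.579). By adjusted *P* alone 10 of the 13 were lower, compared with 1.49% of all tested genes. The further 2 were the transporter subunit *Tap2* (−0.52, adjusted *P* = 0.0457, limma) and the loading factor *Tapbp* (−0.45, adjusted *P* = 0.0158, limma). Neither of these passed in every fit that left out 1 library: *Tap2* failed without *Irf1-/-* replicate 2, *Irf1-/-* replicate 3, WT replicate 3, or WT replicate 4 (as high as 0.203), and *Tapbp* without *Irf1-/-* replicate 2, *Irf1-/-* replicate 4, WT replicate 2, or WT replicate 3 (as high as 0.118). *Tap2* also failed by adjusted *P* with no filter on low values and with quantile normalization, and both genes failed in limma without a trend. *Pdia3* (−0.37) did not pass, with all *Irf1-/-* libraries below WT, and the general chaperones *Calr* (−0.24) and *Canx* (−0.14) overlapped between genotypes.

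**Figure D2:**
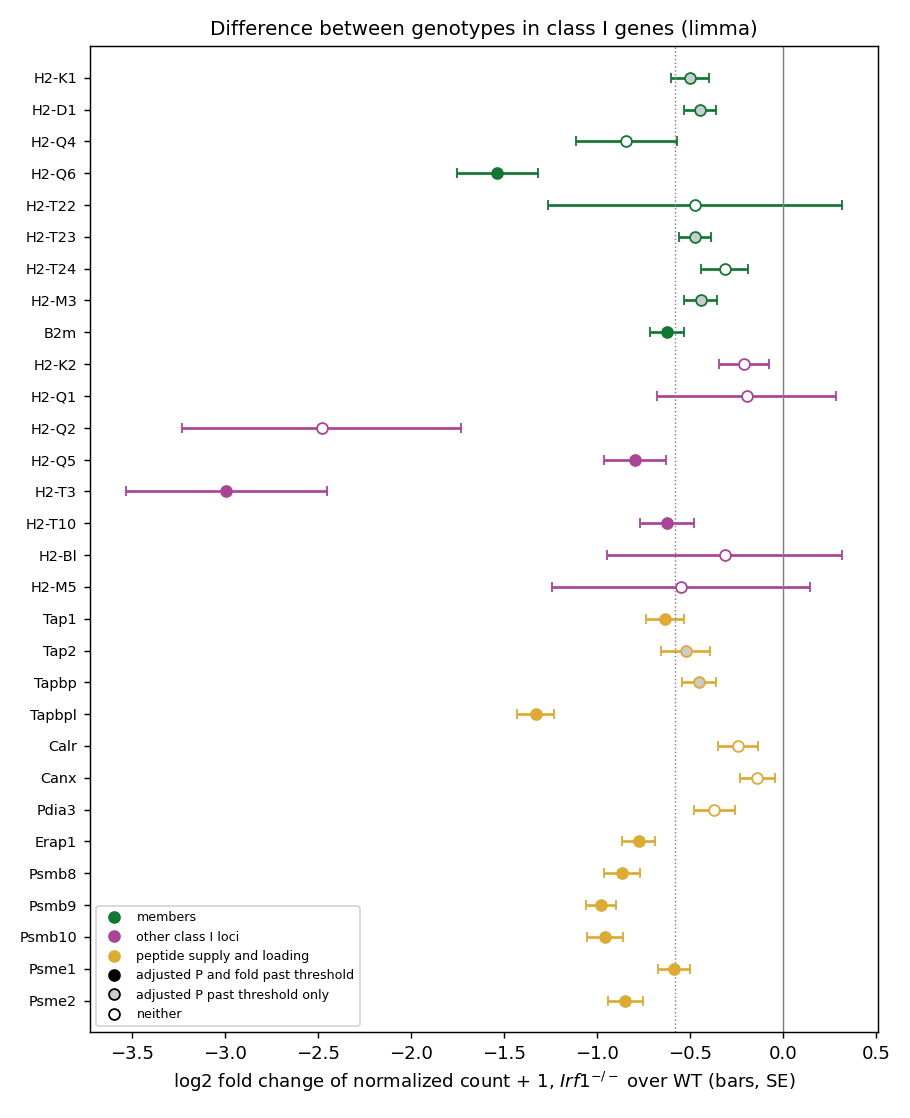
Log2 fold change of normalized count + 1, *Irf1-/-* over WT (horizontal axis), with SE bars from limma, for the class I genes, other class I loci, and genes of peptide supply and loading. All 30 values are below 0. Points filled in the color of their list passed both the adjusted *P* and the fold change threshold (dotted line at −0.58). Points filled in gray passed the adjusted *P* only, and open points passed neither.

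Transcriptional regulators of class I genes were examined as a list of 16, of which 10 had negative fold changes, with a median of −0.099. Among the listed genes, *Nlrc5*, the class I transactivator, was called lower. It had 5840, 5294, and 5141 normalized counts in WT and 3932, 3267, and 3452 in *Irf1-/-* libraries. The *Irf1-/-* values were all below the WT values, with a log2 fold change of −0.61 that went under the threshold without *Irf1-/-* replicate 3 or WT replicate 2 (−0.56 at the least) or with quantile normalization (−0.578). For 4 of the 16 regulators all *Irf1-/-* libraries lay below WT, compared with 9.27% of all tested genes. *Irf9*, a factor of interferon signaling that was singled out after its values were seen, was the one regulator with all *Irf1-/-* libraries above WT. Of all 17404 tested genes, 1853 were above WT in this way. The log2 fold change of *Irf9* was 0.30 (SE 0.084, adjusted *P* = 0.0765, limma), and *Irf9* passed in DESeq2 by adjusted *P*.

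Class I–like proteins encoded outside the H2 complex were examined as a list of 11 genes. Of these, 8 were tested, 7 of them had positive fold changes, and the median was 0.29. Among all 17404 tested genes, 8776 had negative fold changes. None of the listed genes was called in limma or edgeR, while DESeq2 called 1 lower. In limma, 1 was lower and 3 were higher at an unadjusted *P* under 0.05, and 2 of the latter, *Fcgrt* and *Procr*, also had an adjusted *P* under 0.05. *Fcgrt*, the heavy chain of the neonatal Fc receptor, which also pairs with B2m, had 3237, 3294, and 3373 normalized counts in WT and 4420, 4907, and 4923 in *Irf1-/-* libraries. Its *Irf1-/-* libraries were all above WT (log2 fold change 0.52, SE 0.089, adjusted *P* = 0.0051, limma). *Hfe*, a regulator of iron uptake that pairs with B2m as well and was singled out after its values were seen, was the gene with a negative fold change and the one called in DESeq2. It had 418, 408, and 385 normalized counts in WT and 285, 253, and 223 in *Irf1-/-* libraries. Its *Irf1-/-* libraries were all below WT (log2 fold change −0.67, SE 0.187, adjusted *P* = 0.0715, limma). Class II genes served for contrast. Against 0.954% of all tested genes, 6 of 10 class II genes were called lower. The log2 fold changes of these were −5.45 for *Cd74*, −5.25 for *H2-Aa*, −5.11 for *H2-Eb1*, −2.64 for *H2-Ab1*, −1.44 for *Ciita*, and −0.70 for *H2-DMa*, and those of the other 4 ranged from −0.34 to 0.26. The differences between class I and class II genes were not tested.

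Genes with a pattern like that of *B2m* were sought among 12069 genes that averaged 100 normalized counts or more. The 5 with the highest Pearson correlation over the 6 libraries were *Gbp2* (r = 0.998), *Tgtp1* (0.995), *Mrpl32* (0.995), *Psme2* (0.994), and *H2-M3* (0.994). Among the class I heavy chains searched, the lowest correlation with *B2m* was that of *H2-Q4* (0.71). For the summed heavy chains the 5 were *Edem1* (0.997), *Adgrg7* (0.994), *Tmem170b* (0.992), *Il18bp* (0.992), and *Kiz* (0.991). Both genotypes enter these values, so they include the difference between the genotypes and are given as a description. Of these genes, *Gbp2* (−1.25), *Tgtp1* (−3.34), *Psme2*, *Il18bp* (−2.53), and *Adgrg7* (−0.99) were called lower, although leaving out any *Irf1-/-* library, WT replicate 2, or WT replicate 3 ended the call of *Adgrg7* (highest adjusted *P* 0.150, limma).

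Because the fold changes of the class I genes shared a direction, their promoters were searched on both strands for motifs of factors known to act on class I genes. RefSeq promoter windows of 300 bases (assembly GRCm38.p6) were available for 9 of the 10 genes, all except *H2-T24*. The IRF consensus AANNGAAA was found in 9 of 9, compared with 24.2% of 27025 windows of all genes. Its longer form GAAANNGAAA, which contains the shorter one, was found in 3 (*H2-T22*, *H2-T23*, and *B2m*), compared with 3.49% of all windows. The NF-kappaB consensus was in 8 (all but *H2-T23*), compared with 10.9%, and the cAMP response core TGACG was in 7 (all but *H2-Q6* and *H2-T23*), compared with 21.0%. The STAT motif TTCNNNGAA was found in *H2-M3* alone, compared with 8.47%. The class I heavy chain genes are related copies, so their windows are not independent of each other, and a match describes letters and not binding. In 7 of the 9 windows the IRF match read TTTCACTT on the strand of the gene. *H2-T22* and *H2-Q7* hold this match too, although few or no reads were counted on them.

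Stretches of 52 bases from these windows are shown 5′ to 3′ on the strand of the gene for the 6 genes with an adjusted *P* under 0.05 and for *H2-Q7*, to show how alike the classical and Q genes are and how *H2-T23*, *H2-M3*, and *B2m* differ around the match. Capitals mark the first match to the IRF consensus, which lies between positions −90 and −83 of the start in *H2-K1* and between −137 and −130 in *B2m*.
H2-K1 (chr17:34000418-34000469, minus strand): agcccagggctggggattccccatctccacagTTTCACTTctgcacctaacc
H2-D1 (chr17:35262912-35262963, plus strand): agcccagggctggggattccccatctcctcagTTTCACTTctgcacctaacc
H2-Q6 (chr17:35424666-35424717, plus strand): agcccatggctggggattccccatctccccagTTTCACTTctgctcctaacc
H2-Q7 (chr17:35439010-35439061, plus strand): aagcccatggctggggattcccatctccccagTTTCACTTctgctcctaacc
H2-T23 (chr17:36032806-36032857, minus strand): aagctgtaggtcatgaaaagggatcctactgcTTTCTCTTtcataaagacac
H2-M3 (chr17:37270101-37270152, plus strand): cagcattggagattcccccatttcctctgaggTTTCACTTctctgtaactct
B2m (chr2:122147518-122147569, plus strand): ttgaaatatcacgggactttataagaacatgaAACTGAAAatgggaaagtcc

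Markers were examined to describe the sorted cells. All 9 HSC markers were counted in every library, with summed normalized counts of 194532, 199589, and 181871 in WT and 192806, 216493, and 196037 in *Irf1-/-* libraries. *Kit* was the most abundant and did not differ by more than the spread between libraries. In limma, *Fgd5* (log2 fold change 0.83) and *Procr* (0.52) were higher and *Ly6a* (−0.43) was lower at an adjusted *P* under 0.05, but *Ly6a* went up to 0.115 when *Irf1-/-* replicate 2, *Irf1-/-* replicate 4, or WT replicate 3 was left out. *Cd48*, which the HSC gate leaves out, had between 257 and 431 normalized counts and overlapped between genotypes. Of the 3 markers absent from or low in the gate, *Flt3* was the most abundant and was higher in *Irf1-/-* HSCs (0.67). The list had 2919, 2060, and 3256 summed counts in WT and 3895, 4762, and 3814 in *Irf1-/-* libraries. The call of *Flt3* was lost without any 1 *Irf1-/-* replicate or without WT replicate 3 (adjusted *P* up to 0.127, limma), and *Flt3* did not pass an adjusted *P* of 0.05 when the term for the library split was added. With 1 library left out, its log2 fold change ranged from 0.45 to 0.81.

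Markers of mature cells, which also carry class I, were examined as further lists. The HSC gate takes cells without lineage markers (Ter119, Gr-1, CD11b, B220, CD8, and CD4) that carry Sca1, cKit, and CD150 and lack CD48, so B, T, myeloid, and erythroid cells are meant to be left out by the sort. The 4 erythroid genes had 1436, 1319, and 1201 summed normalized counts in WT and 925, 622, and 957 in *Irf1-/-* libraries. *Klf1* made up most of this sum and was called lower (−0.72), without the call when *Irf1-/-* replicate 2 or 3 or WT replicate 2 or 3 was left out (adjusted *P* up to 0.117, limma), and the hemoglobin genes *Hbb-bt* and *Hba-a1* were listed at 0 in every library. How reads that align to several places were counted is not given, so a 0 for genes with near copies does not show that their RNA was absent. The 5 neutrophil and granule genes summed to 317, 288, and 2642 in WT and 381, 359, and 663 in *Irf1-/-* libraries, with *Mpo* the most abundant by a mean of 267 except in WT replicate 4, where *S100a9* reached 1246. Without WT replicate 4, the log2 fold changes of the 9 tested class I genes ranged from −1.48 for *H2-Q6* to −0.28 for *H2-T24*, with −0.64 for *B2m* and −0.52 for *H2-K1*, and the fall of *H2-Q4* became smaller (−0.68). No gene of the B cell (5 genes, 2642 to 3077 summed counts, *Cd79b* highest), T cell (5, 146 to 371, *Cd4*), NK cell (4, *Nkg7*), dendritic cell (4, 56.1 to 223, *Clec9a*), macrophage (5, 1666 to 2094, *Cd68*), or endothelial list (3, *Pecam1*) had an adjusted *P* under 0.05 in limma. Counting the neutrophil list with these, 3 of 26 tested genes (named here because of their values) had an unadjusted *P* under 0.05 in limma, and by adjusted *P* edgeR gave 0 and DESeq2 gave 2 (*Nkg7* and *Kdr*). *Nkg7* was below WT in all *Irf1-/-* libraries (log2 fold change −0.34, unadjusted *P* = 0.0045), but the other NK cell genes, *Klrb1c* (0.28), *Ncr1* (0.0089), and *Prf1* (−0.94), overlapped between genotypes. *Pecam1* (0.32, unadjusted *P* = 0.0139) and *Kdr* (0.59, unadjusted *P* = 0.0094) were higher on average but overlapped. The dendritic cell genes *Itgax* (−1.31), *Xcr1* (−0.82), *Siglech* (−0.55), and *Clec9a* (−0.47) had negative fold changes but few reads, and overlapped between genotypes. Median log2 fold changes were −0.68 (dendritic cell), −0.17 (NK cell), −0.14 (neutrophil), −0.12 (B cell), 0.047 (macrophage), 0.092 (T cell), and 0.52 (endothelial). The NK cell list, most of it *Nkg7*, summed to 3731, 3301, and 3554 normalized counts in WT and 2835, 2683, and 3489 in *Irf1-/-* libraries. The endothelial list summed to 3860, 3873, and 4852 in WT and 5315, 4717, and 6167 in *Irf1-/-* libraries. Both sums overlapped between genotypes. The part of these cells in the class I values was not tested.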

How the data were processed

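Bulk RNA-seq libraries of HSCs from 3 WT and 3 *Irf1-/-* mice were grouped by their labels. Per the submitters' processing notes and the study's methods, the authors made libraries with SMART-Seq v4 and Nextera XT, used Trim Galore for trimming, HISAT2 for alignment to mm39, and Htseq-count for gene counts. Tool versions, the annotation, the strand setting, and the handling of reads that align to several places are not given in the sources used here. The deposited values are a signal, namely read counts that DESeq2 had scaled by 1 size factor for each library. Within 0.01 read, 100% of the values were whole multiples of 1 read, so whole reads were recovered. The libraries have no molecular identifiers, so reads are not independent molecules. Reads on genes were 59658080, 45332573, and 43267486 in WT and 43138521, 57281017, and 45129929 in *Irf1-/-* libraries. To look for repeated deposits of a library, libraries of the same genotype were compared, and no pair agreed within sampling noise (chi-square per gene 16.0 to 30.0).

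All genes that averaged 10 normalized counts or more were tested with limma 3.58.1 (eBayes with an intensity trend, R 4.3.3) on log2(normalized count + 1), a scale that understates changes of low genes. Benjamini-Hochberg adjustment of *P* covered all tested genes. Calls required an adjusted *P* under 0.05 together with a log2 fold change beyond 0.58 in either direction. edgeR 4.0.16 and DESeq2 1.42.0 were run on the recovered reads as alternatives, beside other pseudocounts, filters, scalings, thresholds, a replicate block, and each library left out. Heavy chain to *B2m* ratios were compared with exact two-sided permutation tests, and their *P* values are given unadjusted over 8 comparisons. The genes and lists were chosen with earlier results of these data known. Genes named are the 10 class I genes, *Irf1*, called genes of the lists, the 5 genes most correlated with *B2m* and with the summed heavy chains, markers, and a few other listed genes given as background. One called gene of the lists is not reported here. Exon lengths and repeated 100-base windows came from GENCODE vM1 on NCBIM37, with windows searched on chromosomes 17 and 2, and promoters came from RefSeq, GRCm38.p6. Windows cover 250 bases before and 50 after the start. The NF-kappaB consensus was searched as GG, 2 purines, 2 of any base, 2 pyrimidines, and CC. Plots were drawn with matplotlib 3.10.9.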

Additional observations from a re-analysis of the deposited data

How the results depend on the processing

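Fold changes of the 9 tested class I genes stayed negative in every setting run, with 1 exception, *H2-T22*, which was 0.025 without *Irf1-/-* replicate 3 and −0.58 at the lowest with 1 library left out, and which gave no value with a minimum mean of 50 or without *Irf1-/-* replicate 4 or WT replicate 2. *H2-Q6* and *B2m* were called in all settings but limma without a trend. Among all 17404 tested genes, 166 (0.954%) were called lower and 167 higher. Of the class I genes, 2 were called lower and 6 were lower at an adjusted *P* under 0.05. Of the listed genes, 19 were called lower and 0 higher. The listed genes are the other class I loci, peptide supply, regulator, class I–like, and class II lists, with 8, 13, 16, 8, and 10 tested genes. Class II genes, taken for contrast, account for 6 of the 19. Without a trend limma called 33 lower and 7 higher, 0 class I genes by either rule, and 4 listed genes lower. Of the called genes named in the report, it called *Tapbpl*, *Psmb9*, *H2-Aa*, *H2-Eb1*, *Gbp2*, *Tgtp1*, and *Il18bp*, and none of the others. DESeq2 called 211 lower and 299 higher, 3 class I genes, and 20 listed genes lower. An adjusted *P* under 0.05 with no fold change threshold gave 260 lower and 301 higher, 6 class I genes, and 2 listed genes higher, and an adjusted *P* under 0.01 gave 104 lower and 63 higher and 3 class I genes by adjusted *P*. When 1 library was left out, 105 to 265 genes were called lower and 83 to 304 higher, 3 to 6 class I genes were lower at an adjusted *P* under 0.05, and 0 to 1 listed genes were called higher. The causes of these changes were not tested. A term for the split of the libraries along the first principal component (32.4% of the variance, *Irf1-/-* replicate 3 and WT replicates 2 and 3 on one side) was chosen after seeing the data, and 7 class I genes then had an adjusted *P* under 0.05. Deviations of same-numbered libraries from their genotype means correlated at r = −0.094, 0.25, and 0.15, compared with −0.33 to 0.25 for pairs with different numbers, and a replicate block gave 196 lower and 219 higher, 2 and 6 class I genes, 19 listed genes lower, and 0 higher. No replicate block applied to the ratios, where 4 heavy chains did not overlap between genotypes with all libraries and 4 to 6 did not when 1 was left out. Counts of *H2-T22* and of *H2-T3* in *Irf1-/-* libraries are too few for a precise fold change.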
